A study of Rattus norvegicus with 20 samples.

Results

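Fibroblast growth factors and their receptors were followed in the nucleus accumbens shell, the part of the ventral striatum most closely tied to reward, of rats from the alcohol-preferring (P) line. The family was taken as 9 genes, namely the ligands Fgf1, Fgf2 and Fgf9, the intracellular factors Fgf12, Fgf13 and Fgf14, and the receptors Fgfr1, Fgfr2 and Fgfr3, out of 14217 genes that the array's annotation names. They were read by the 21 probe sets (groups of short probes for 1 transcript) whose annotation names one of these genes alone. The ethanol group (n = 10 animals) could drink solutions of 15 and 30% ethanol during adolescence, and the water group (n = 10 animals) received water alone. Both groups are of the same selectively bred line and each animal gave 1 array. The series title calls this drinking binge-like; the labels do not state how much was drunk, nor the sex of the rats or their age when tissue was taken.

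Fibroblast growth factors fall into classes that work in different ways. Fgf1, Fgf2 and Fgf9 leave the cell, bind heparan sulphate and activate receptor tyrosine kinases of the Fgfr family, which signal through the adaptor Frs2 to the Ras and ERK cascade, to PI3 kinase and to phospholipase C gamma. Fgf12, Fgf13 and Fgf14, also called fibroblast growth factor homologous factors, stay inside neurons, do not act as classical receptor ligands, and bind the tails of voltage-gated sodium channels. In the brain Fgfr3 is best known from astrocytes, Fgfr2 from oligodendrocytes and astrocytes, and Fgfr1 from neurons and glia.

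Values are on the log2 scale after RMA, a method that corrects background, normalizes between arrays and summarises each probe set, so 1 unit is a doubling. Array medians lay between 7.93 and 7.98. A probe set was tested if its mean over all arrays reached 6.65, which left out the dimmest 33.3%. Levels of different probe sets cannot be ranked against each other, since each has its own probes. Of the medium spiny neuron markers, which define striatal tissue, 11 of 12 listed genes were on the array and all of these were tested. Of 5 listed markers of excitatory neurons 4 were on the array and 1 was tested. By their correlation with the other arrays water animals 12, 17 and 20 stood apart. In 3 water animals, numbers 17, 19 and 20, the mean of these striatal markers was 12.09, 12.33 and 11.78, below the 12.57 to 13.23 of all ethanol animals and the 12.87 to 13.20 of the remaining water animals. The 1 tested excitatory neuron marker, Slc17a6, a vesicular glutamate transporter, was highest in the same 3 animals, at 9.60, 9.22 and 9.98, against 6.72 to 8.30 in all ethanol animals and 6.33 to 7.99 in the remaining water animals. Differences between the groups and correlations that lean on these 3 arrays are given with and without them where both were computed. The 3′ minus 5′ value of the control probe sets, a measure of RNA quality and labelling, also differed between the groups, at 1.21 ± 0.12 in ethanol and 1.40 ± 0.22 in water (SD, n = 10 each, log2).

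No FGF gene differed between ethanol and water animals past the threshold. Of the 9 genes 8 had a tested probe set, and of their 12 tested probe sets 0 passed (limma, adjusted p under 0.05 over all 20695 probe sets tested), where 0.0966% of all tested probe sets did. At an unadjusted p under 0.05 stood 2 of the 12, the brightest probe set of Fgfr1, lower in ethanol, and that of Fgf14, higher in ethanol, where 12.1% of all tested probe sets did. Adjusted for the 3′ minus 5′ value, neither stood there, at -0.19 for Fgfr1 (unadjusted p = 0.0545) and 0.19 for Fgf14 (unadjusted p = 0.0677, limma). By the brightest probe set of each gene 4 differences were positive and 4 negative, with a median of -0.016 against 0.00016 over all 10746 genes tested. The 95% intervals of the 12 differences reached no further than from -0.38 to 0.36.

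**Figure D1:**
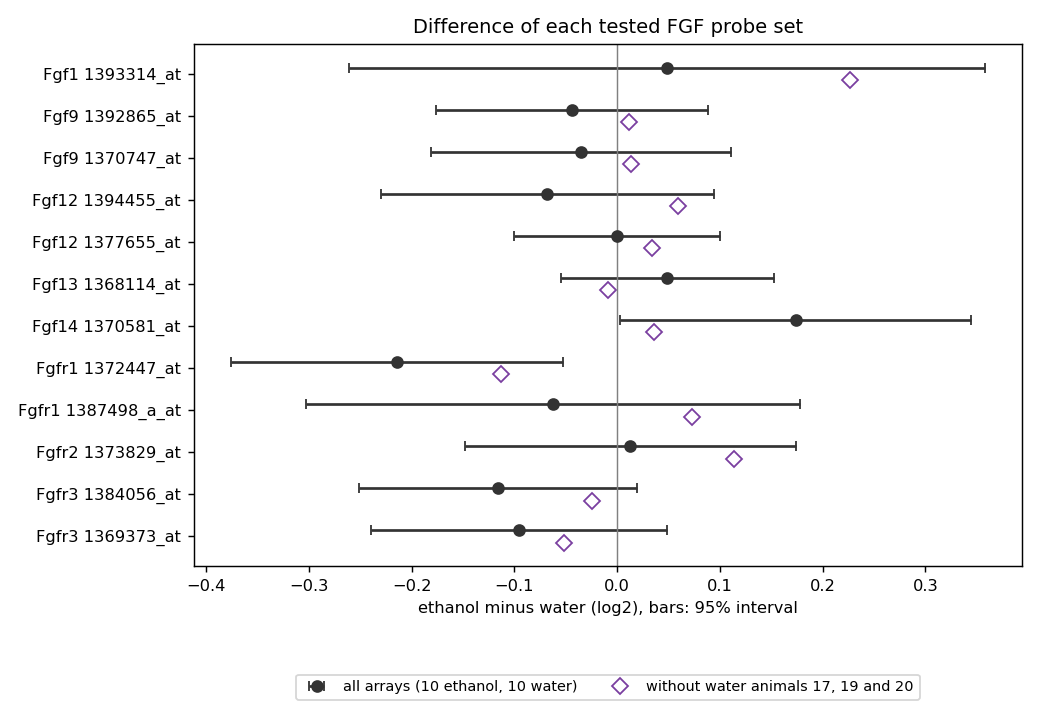
Difference between ethanol and water animals (log2, horizontal axis) for each tested FGF probe set, with 95% intervals over all 20 arrays (filled points) and the difference without water animals 17, 19 and 20 (open diamonds). The filled points run from -0.21 for Fgfr1 to 0.17 for Fgf14, and both of these lie nearer to 0 as diamonds. The diamonds of Fgf1 and Fgfr2 lie farther from 0 than their filled points, at 0.23 and 0.11.

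Among the receptors, Fgfr1 had the largest difference of the family. Its brighter probe set (1372447_at) had values of 9.28, 9.51 and 9.87 in ethanol animals (lowest, median and highest), against 9.51, 9.76 and 10.11 in water animals. The groups overlapped, and 9 of 10 ethanol animals lay below the water mean. The only ethanol animal above that mean was number 8, and the highest water values were those of animals 20 and 17, at 10.11 and 10.01. The means were 9.53 ± 0.16 in ethanol and 9.74 ± 0.20 in water (SD, n = 10 each), a difference of -0.21 ± 0.08 (SE), which is 0.862-fold with a 95% interval of 0.771 to 0.964. The unadjusted p was 0.0115 and the adjusted p 0.327 (limma), so Fgfr1 did not pass.

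A second Fgfr1 probe set (1387498_a_at) showed less. It was at 7.46 ± 0.25 in ethanol and 7.53 ± 0.30 in water (SD, n = 10 each), a difference of -0.06 with a 95% interval of -0.30 to 0.18 (adjusted p = 0.84, limma). After subtraction of the group means both Fgfr1 probe sets moved together over the 20 arrays with a Pearson r of 0.627, and with an r of 0.368 over the 17 arrays without water animals 17, 19 and 20. Without those 3 animals the brighter probe set differed by -0.11 (adjusted p = 0.542, limma) and the dimmer one by 0.07 (adjusted p = 0.823, limma).

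Fgfr3 pointed the same way at both of its probe sets and passed at neither. The brighter one (1384056_at) had values of 10.56, 10.82 and 10.99 in ethanol animals (lowest, median and highest), against 10.68, 10.86 and 11.23 in water animals. The 2 highest of all 20 values belonged to water animals 20 and 17, and the lowest to ethanol animal 7. Means were 10.80 ± 0.11 in ethanol and 10.92 ± 0.18 in water (SD, n = 10 each), a difference of -0.12 with a 95% interval of -0.25 to 0.02 (adjusted p = 0.468, limma). The other probe set (1369373_at) differed by -0.10, with an interval of -0.24 to 0.05 (adjusted p = 0.568, limma). Without water animals 17, 19 and 20 the differences were -0.02 and -0.05.

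Fgfr2 was at nearly the same level in both groups. Its tested probe set (1373829_at) had values of 10.04, 10.31 and 10.63 in ethanol animals (lowest, median and highest), against 9.98, 10.29 and 10.60 in water animals. The difference was 0.01, with a 95% interval of -0.15 to 0.17 (adjusted p = 0.959, limma). Ethanol animal 8 held the highest value of all arrays, followed by water animals 20, 17 and 19. Without these 3 water animals the difference was 0.11 (adjusted p = 0.563, limma). Its 4 further probe sets had means between 4.76 and 6.15 over all arrays, below the level for testing, and 3 of those are of the kind whose name marks several transcripts of the gene. Their differences lay between -0.02 and 0.10.

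The secreted ligands showed no difference that passed. Fgf9, a ligand made by neurons that acts on glial receptors, was read by 2 tested probe sets. The brighter one (1392865_at) had values of 9.39, 9.71 and 9.84 in ethanol animals (lowest, median and highest), against 9.50, 9.71 and 9.97 in water animals. It differed by -0.04 (95% interval -0.18 to 0.09, adjusted p = 0.787) and the other (1370747_at) by -0.04 (95% interval -0.18 to 0.11, adjusted p = 0.852, limma for both). These probe sets moved together over the arrays, with an r of 0.73 after subtraction of the group means and of 0.645 without water animals 17, 19 and 20. Ethanol animal 8 was lowest at both.

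Fgf1, which binds all receptor types of the family, varied most between animals. Its tested probe set (1393314_at) had values of 7.40, 7.67 and 8.37 in ethanol animals (lowest, median and highest), against 7.11, 7.66 and 8.48 in water animals. The SD was 0.31 in ethanol and 0.40 in water, the largest of the 12 tested probe sets in each group. The difference of 0.05 had a 95% interval of -0.26 to 0.36 (adjusted p = 0.91, limma), so a fold between 0.835 and 1.28 lay within it. Without water animals 17, 19 and 20 the difference was larger, at 0.23 (adjusted p = 0.530, limma), and with array weights it was 0.19 (adjusted p = 0.635, limma). Water animal 20 and ethanol animal 1 held the highest values and water animal 21 the lowest. The other Fgf1 probe sets (1387301_at and 1392820_at) were dim, at means of 5.59 and 4.48 over all arrays, and their r with the tested one was 0.281 and -0.148.

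Fgf2, the basic fibroblast growth factor of astrocytes, was not tested. Its single probe set (1387606_at) was at 6.03 ± 0.14 in ethanol and 6.01 ± 0.15 in water (SD, n = 10 each), below the level of 6.65. In a fit without the filter on level the 9 dim member probe sets were measured as well. There 0 of them passed and 0 stood at an unadjusted p under 0.05 (limma), where 0.0709% and 10.6% of all probe sets did.

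The intracellular factors split between higher and lower differences. Fgf14, whose loss or mutation disturbs sodium currents and causes ataxia, had values of 8.46, 8.59 and 8.79 in ethanol animals (1370581_at, lowest, median and highest), against 7.98, 8.56 and 8.67 in water animals. All 10 ethanol animals lay above the water mean, but only 5 of 10 lay above the water median. Water animals 20, 17 and 19, at 7.98, 8.04 and 8.34, held the 3 lowest values of all arrays. The means were 8.62 ± 0.11 in ethanol and 8.44 ± 0.25 in water (SD, n = 10 each), a difference of 0.17 ± 0.08 (SE) or 1.13-fold (95% interval 1.002 to 1.27, unadjusted p = 0.0468, adjusted p = 0.406, limma). Without those 3 animals it was 0.04 (adjusted p = 0.823, limma). A second probe set (1387637_a_at) was dim, at 6.06 ± 0.15 in ethanol and 6.05 ± 0.15 in water.

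Fgf13, which also binds microtubules, was read by 1 bright probe set (1368114_at). Values were 12.86, 12.99 and 13.10 in ethanol animals (lowest, median and highest), against 12.65, 12.96 and 13.10 in water animals. Water animals 20 and 17 were lowest, at 12.65 and 12.78. The difference of 0.05 had the 95% interval -0.05 to 0.15 (adjusted p = 0.685, limma), which bounds a change at 0.963-fold to 1.11-fold.

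Fgf12 was opposite to Fgf14 in water animals 17, 19 and 20, and to Fgf13 in water animals 17 and 20. Its brightest probe set (1394455_at) had values of 11.45, 11.56 and 11.79 in ethanol animals (lowest, median and highest), against 11.36, 11.61 and 12.02 in water animals. Water animals 17, 20 and 19 were the 3 highest of all arrays, at 12.02, 11.96 and 11.85, and animals 21 and 18 of the same group the lowest. The difference was -0.07 (95% interval -0.23 to 0.09, adjusted p = 0.722, limma), and 0.06 without those 3 animals. The second probe set (1377655_at) differed by less than 0.01, with a 95% interval of -0.10 to 0.10 (adjusted p = 0.9996, limma). The third (1370233_at) was dim, at a mean of 6.26 over all arrays.

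**Figure D2:**
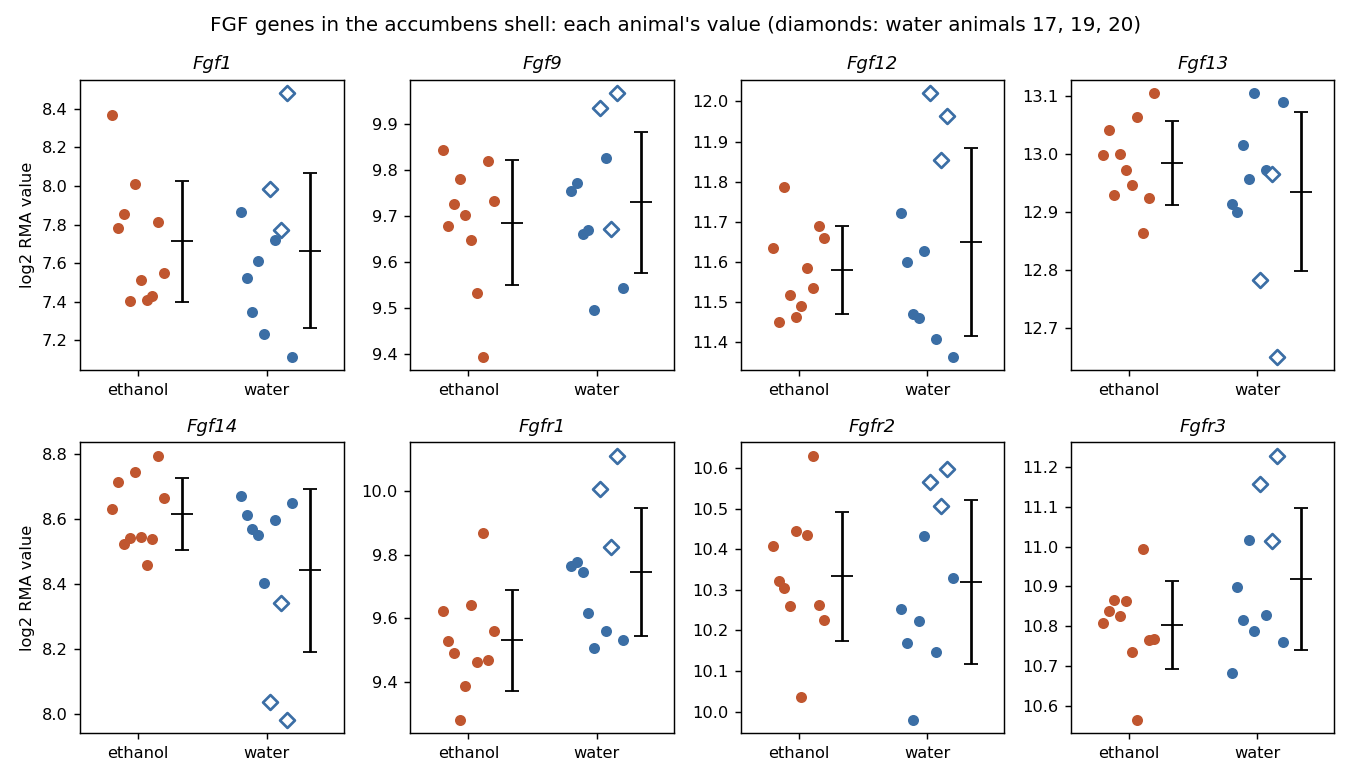
Log2 value (vertical axis, scaled per panel) of each animal at the brightest probe set of the 8 tested FGF genes, with the group mean and SD at the right of each column of points and water animals 17, 19 and 20 as open diamonds. The diamonds lie at the top of the water group for Fgf12, Fgfr1 and Fgfr2, and at its bottom for Fgf14.

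The spread between animals was larger in water than in ethanol for 11 of the 12 tested FGF probe sets, as it was for 81.3% of all tested probe sets. The SD in water was 2.26 times that in ethanol for Fgf14, 2.13 times for the brightest Fgf12 probe set and 1.89 times for Fgf13. The exception was the dimmer Fgf9 probe set, at 0.876 times. Fgf1 and Fgf9 ran together, at an r of 0.761 over the 20 arrays after subtraction of group means. Without water animals 17, 19 and 20 that r was 0.673, and Fgf9 had an r of -0.546 with Fgfr2 and 0.523 with Fgf14. The latter 2 pairs were at -0.04 and -0.267 over the 20 arrays. Over all 20 arrays several other pairs ran against each other. After subtraction of group means Fgf14 had an r of -0.714 with Fgf12 and of -0.63 with Fgfr3, and Fgf13 an r of -0.751 with Fgfr1 and of -0.733 with Fgfr3. Fgfr2 had an r of -0.606 with Fgf14 and of -0.404 with Fgf13. Over the 17 arrays without water animals 17, 19 and 20, Fgf14 had an r of -0.09 with Fgf12, 0.06 with Fgfr3 and -0.177 with Fgfr2. Over the same arrays Fgf13 had an r of -0.519 with Fgfr1, -0.45 with Fgfr3 and 0.04 with Fgfr2. All pairs share the same arrays and normalization, and these correlations are a description of 28 pairs.

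**Figure D3:**
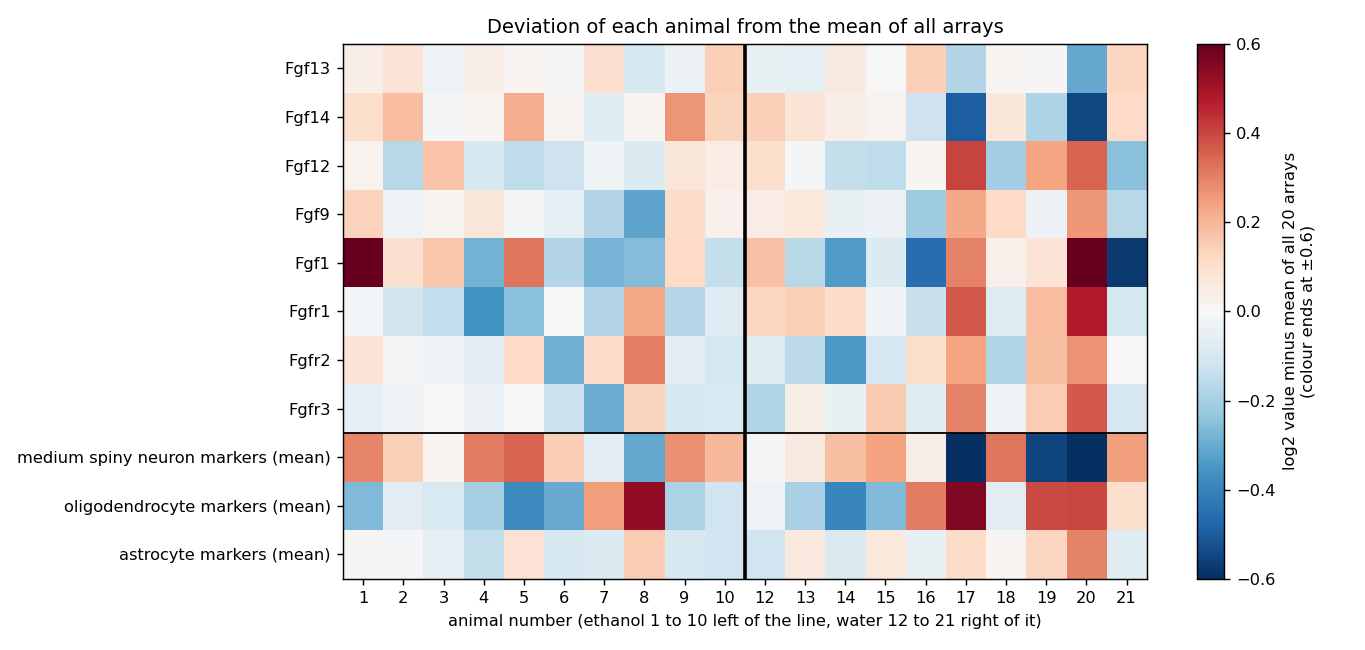
Deviation of each animal (horizontal axis, ethanol animals left of the line and water animals right of it) from the mean of all 20 arrays (log2, colour) for the brightest probe set of each tested FGF gene and for the means of 3 marker lists. Water animals 17 and 20 stand out with low Fgf13 and Fgf14, high Fgf12 and high receptors, beside low medium spiny neuron markers and high oligodendrocyte markers.

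The means of cell type markers differed between arrays in the same animals. The medium spiny neuron markers averaged 13.02 ± 0.20 in ethanol and 12.74 ± 0.50 in water (SD, n = 10 each), with 11 of 11 tested genes higher and 0 past the threshold. Oligodendrocyte markers averaged 11.41 ± 0.28 in ethanol and 11.58 ± 0.32 in water, with 13 of 13 tested genes lower and 0 past the threshold, and astrocyte markers 11.91 ± 0.09 in ethanol and 11.97 ± 0.12 in water, with 7 of 10 lower and 0 past it. In such bulk tissue fewer cells of a type and less RNA per cell cannot be told apart. With the medium spiny neuron mean as a covariate Fgfr1 differed by -0.11, Fgf14 by 0.05 and Fgfr3 by -0.04, and with the oligodendrocyte mean by -0.16, 0.10 and -0.08 (adjusted p between 0.422 and 0.813, limma). Fgf1 and Fgfr2 moved away from 0, from 0.05 and 0.01 to 0.17 and 0.11 with the medium spiny neuron mean. With the oligodendrocyte mean they were at 0.06 and 0.10 (adjusted p between 0.497 and 0.922 for these 2 genes and both covariates, limma).

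Fgfr3 and Fgfr2 varied between animals together with glial markers. Over the 20 arrays, after subtraction of group means, Fgfr3 varied with the astrocyte markers at a Pearson r of 0.841 (permutation p = 1e-05, the smallest that 100000 resamples can give, adjusted p = 0.00016) and a Spearman rho of 0.809 (permutation p = 7e-05, adjusted p = 0.0009). Without the 2 arrays farthest from the median of the markers, water 20 and ethanol 8, r was 0.735. Within groups r was 0.65 in ethanol and 0.935 in water. Over the 17 arrays without water animals 17, 19 and 20 r was 0.726 (permutation p = 0.00071, adjusted p = 0.00776) and rho 0.696 (permutation p = 0.00277, adjusted p = 0.0665), and r was 0.628 without their farthest, ethanol animals 8 and 5.

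Fgfr2 moved in the same way with the oligodendrocyte markers, at an r of 0.828 (permutation p = 2e-05, adjusted p = 0.00016) and a rho of 0.767 (permutation p = 0.0001, adjusted p = 0.0009). Without ethanol 8 and water 17, the farthest arrays, r was 0.752, and within groups it was 0.643 in ethanol and 0.955 in water. Over the 17 arrays r was 0.732 (permutation p = 0.00084, adjusted p = 0.00776) and rho 0.559 (permutation p = 0.0218, adjusted p = 0.133), and r was 0.476 without ethanol 8 and water 16. Fgfr2 also had an r of 0.70 with the astrocyte markers (permutation p = 0.0007, adjusted p = 0.0021, and rho 0.60, permutation p = 0.00717), which was 0.533 without water 20 and ethanol 8 and 0.515 over the 17 arrays (permutation p = 0.0344, adjusted p = 0.138).

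Other members were related to glial markers too, in both directions. Of the 16 relations to oligodendrocyte and astrocyte markers 10 passed by r over the 20 arrays and 3 over the 17 arrays. By rho none passed over the 17 arrays, where the smallest adjusted p was 0.0665 (permutation test, Fgfr3 with the astrocyte markers). The share of all tested genes that would pass in the same way was not computed, so these counts do not set the members apart from other genes. With the astrocyte markers Fgfr1 had an r of 0.655 (permutation p = 0.0019, adjusted p = 0.0038) and Fgf1 an r of 0.589 (permutation p = 0.00662, adjusted p = 0.0122) over the 20 arrays, which were 0.377 and 0.253 over the 17. The rho over the 20 arrays was 0.501 for Fgfr1 (permutation p = 0.026) and 0.582 for Fgf1 (permutation p = 0.00818). Against the astrocyte markers over the 20 arrays ran Fgf13, at an r of -0.695 (permutation test, adjusted p = 0.00224), and Fgf14, at -0.56 (adjusted p = 0.0187). These were -0.441 and 0.024 over the 17. Fgf14 also ran against the oligodendrocyte markers, at -0.673 over the 20 arrays (permutation test, adjusted p = 0.00249) and -0.457 over the 17. Fgf9 ran against the oligodendrocyte markers over the 17 arrays, at an r of -0.742 (permutation p = 0.00097, adjusted p = 0.00776) and a rho of -0.395 (permutation p = 0.118, adjusted p = 0.354). It had an r of -0.429 without ethanol 8 and water 16, and of -0.21 over the 20 arrays.

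Along the medium spiny neuron markers water animals 17, 19 and 20 lay apart from all others, so relations to these markers were read over the 17 other arrays. Fgfr1 ran against them, at an r of -0.624 (permutation p = 0.00792, adjusted p = 0.038) and a rho of -0.539 (permutation p = 0.0278, adjusted p = 0.133). Without ethanol animals 8 and 7, the farthest, r was -0.462, and with the oligodendrocyte markers it was 0.195 (permutation p = 0.448, adjusted p = 0.566). Fgf9 ran with them at an r of 0.67 (permutation p = 0.00343, adjusted p = 0.0206) and a rho of 0.547 (permutation p = 0.0254, adjusted p = 0.133), which rested on these animals, since r was 0.32 without them. Fgf14 had an r of 0.48 (permutation p = 0.0495, adjusted p = 0.17) and a rho of 0.449 (permutation p = 0.0729, adjusted p = 0.25) and did not pass, and r was 0.136 within the 7 remaining water animals. Over all 20 arrays, the 3 apart included, Fgf12, Fgf13, Fgfr2 and Fgfr3 passed by r, at -0.798, 0.72, -0.716 and -0.673. Their adjusted p lay between 0.000336 and 0.00249 (permutation test), and by rho Fgfr3 did not pass (adjusted p = 0.0613). Over the 17 arrays their r was -0.342, 0.286, -0.438 and -0.014, and none of them passed. Over the 20 arrays r was 0.877 for Fgf14 (permutation p = 2e-05, adjusted p = 0.00016), -0.809 for Fgfr1 (permutation p = 7e-05, adjusted p = 0.000336) and -0.221 for Fgf9 (permutation p = 0.35, adjusted p = 0.4). The sign for Fgf9 thus depended on the arrays used, and its r was 0.885 within ethanol animals, -0.643 within all 10 water animals and 0.118 within the 7 remaining ones. In all 24 relations were computed, of the 8 genes to 3 lists, and adjusted p-values cover these 24 in each set of arrays.

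**Figure D4:**
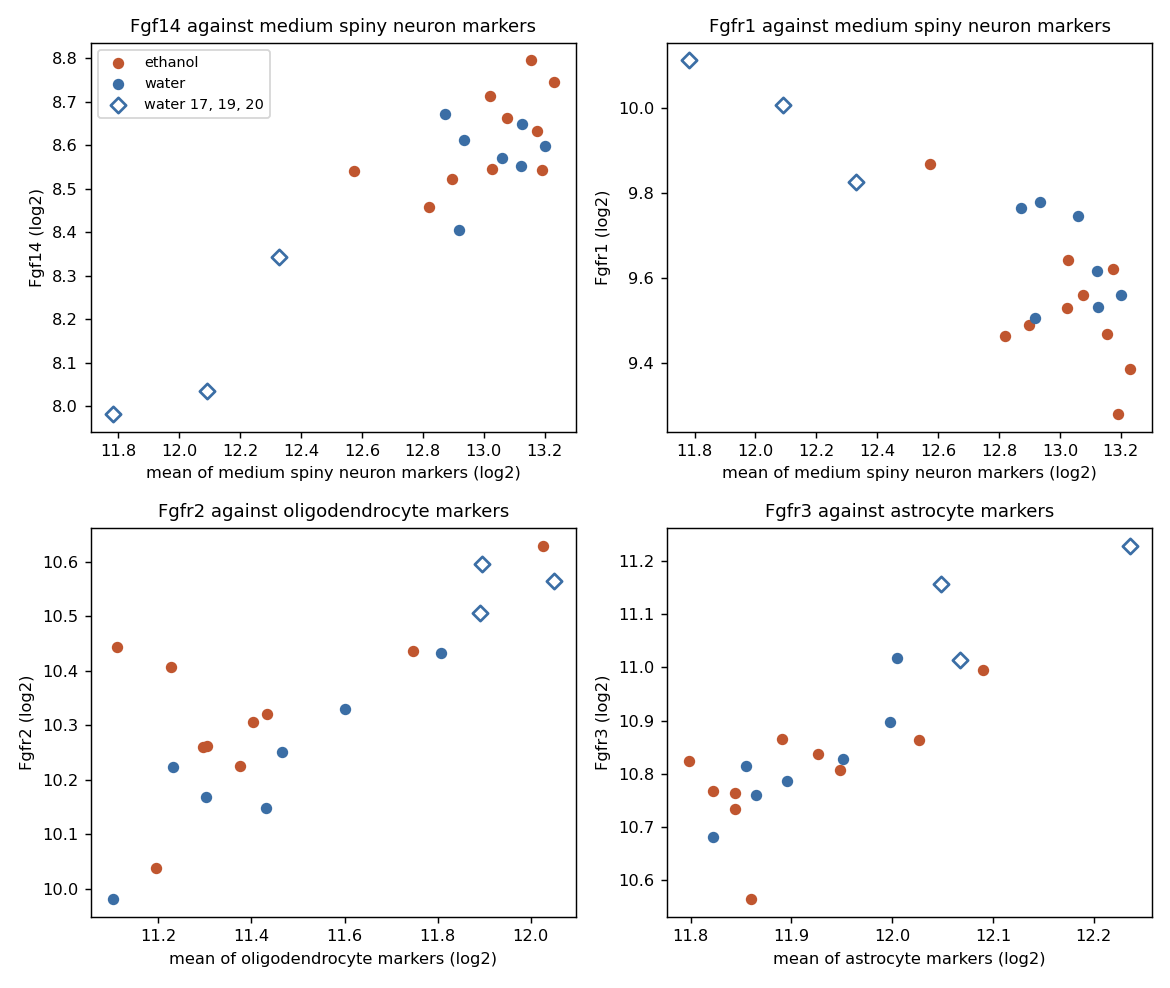
Log2 value of an FGF gene (vertical axes) against the mean of a marker list (horizontal axes, log2) for each animal, ethanol and water in different colours and water animals 17, 19 and 20 as open diamonds. Fgfr3 rises with the astrocyte markers and Fgfr2 with the oligodendrocyte markers within both groups, while the Fgf14 panel holds 2 very low values at the low end of the neuronal markers.

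The genes most like each member over the 20 arrays were taken as the 3 with the highest r after subtraction of group means, among 10661 named genes. For Fgfr2 they were Tns3, Pmp22 and Ptgds (r 0.935, 0.923 and 0.91), and Tns3 was at 0.903 without water animals 17, 19 and 20. For Fgfr3 they were Gyg1, Gprc5b and the astrocyte connexin Gjb6 (0.889, 0.884 and 0.876), and for Fgfr1 Ddah1, Gdpd2 and Sparc (0.903, 0.892 and 0.888). Fgf14 had Mgll, Phactr1 and Sipa1l1 (0.929, 0.925 and 0.922), which were at 0.704, 0.661 and 0.633 without the 3 animals. Fgf13 had Sgk3, Dock4 and Arpp21 (0.888, 0.88 and 0.86), and Fgf12 had Blvra, Epha5 and Lrfn5 (0.926, 0.915 and 0.912). Fgf9 had Yars1, Samm50 and Cerk (0.893, 0.884 and 0.864), and Fgf1 had Mrpl38, Gpr162 and Chac1 (0.902, 0.871 and 0.87). Among the first 3 again without water animals 17, 19 and 20 were Tns3 for Fgfr2, Blvra and Lrfn5 for Fgf12 and Chac1 for Fgf1, and no gene of the other 5 lists. A highest r among so many genes is high by choice, so these lists describe likeness in these arrays alone.

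To show members that varied with glial markers (Fgfr2 and Fgfr3) beside members that ran against these receptors over the 20 arrays (Fgf13 and Fgf14), although 3 of these 4 pairs had an r between -0.177 and 0.06 over the 17 arrays, the 250 bases before their RefSeq starts (build GRCr8) are shown. Fgfr2 (chr1:194280915-194281164), Fgfr3 (chr14:81227210-81227459), Fgf13 (chrX:142423537-142423786) and Fgf14 with its annotated starts (chr15:108086413-108086662 and chr15:107680746-107680995) all lie on the minus strand, and each sequence reads 5′ to 3′ along it. Capitals mark matches on either strand to the GC box GGGCGG, the TATA box TATAAA, the AP-1 site TGANTCA or the CRE TGACGTCA.
Fgfr2: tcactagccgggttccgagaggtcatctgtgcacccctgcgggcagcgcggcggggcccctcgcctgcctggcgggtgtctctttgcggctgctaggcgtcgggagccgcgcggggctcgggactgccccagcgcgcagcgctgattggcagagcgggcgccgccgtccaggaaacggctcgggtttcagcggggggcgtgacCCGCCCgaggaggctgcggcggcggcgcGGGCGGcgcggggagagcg
Fgfr3: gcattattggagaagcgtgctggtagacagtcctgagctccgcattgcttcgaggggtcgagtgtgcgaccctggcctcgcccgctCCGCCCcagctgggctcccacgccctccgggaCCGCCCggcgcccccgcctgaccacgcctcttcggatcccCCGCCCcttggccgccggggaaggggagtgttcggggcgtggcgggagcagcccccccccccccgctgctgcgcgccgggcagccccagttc
Fgf13: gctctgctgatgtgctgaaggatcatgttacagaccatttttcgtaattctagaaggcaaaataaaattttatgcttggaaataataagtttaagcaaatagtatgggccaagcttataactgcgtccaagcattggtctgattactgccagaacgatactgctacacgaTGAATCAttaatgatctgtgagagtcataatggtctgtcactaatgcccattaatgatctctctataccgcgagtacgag
Fgf14, first start: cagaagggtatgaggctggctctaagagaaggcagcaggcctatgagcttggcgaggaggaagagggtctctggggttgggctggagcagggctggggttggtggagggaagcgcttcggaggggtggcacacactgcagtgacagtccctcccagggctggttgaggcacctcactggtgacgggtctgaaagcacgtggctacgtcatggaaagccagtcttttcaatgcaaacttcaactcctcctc
Fgf14, second start: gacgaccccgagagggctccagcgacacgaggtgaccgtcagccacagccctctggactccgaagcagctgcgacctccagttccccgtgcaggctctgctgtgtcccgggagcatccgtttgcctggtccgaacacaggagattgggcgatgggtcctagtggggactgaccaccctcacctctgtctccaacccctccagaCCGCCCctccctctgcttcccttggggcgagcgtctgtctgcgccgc

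The receptor windows were rich in G and C, at 76.8% for Fgfr2 with 37 CpG dinucleotides and 74.4% for Fgfr3 with 26, against a median of 51.2% and 5 CpG over 33469 such windows. Fgf13 was at 38.8% with 7 CpG, and Fgf14 at 59.2% and 66.4% with 6 and 17. The GC box matched 2 times before Fgfr2, 3 times before Fgfr3, 1 time before the second Fgf14 start and 0 times before Fgf13 and the first Fgf14 start, and 30.5% of all windows hold it. Fgf13 had the 1 match to the letters TGANTCA searched for AP-1, with A at N, where any base was accepted. Such a match is held by 6.34% of windows, and none of the 5 windows had a TATA box (12.9% of all) or a CRE (1.59%). A match describes letters in the window and does not show binding.

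The other genes of the pathway, from lists chosen with earlier results of these data known, also held no gene past the threshold. By 1 probe set per gene 0.0931% of the 10746 genes tested passed (limma, adjusted p), while 5.24% stood higher in ethanol and 4.77% lower at an unadjusted p under 0.05. All 16 other genes named Fgf on the array, from Fgf3 to Fgf23, lay below the level for testing, with means over all arrays between 4.77 (Fgf3) and 6.31 (Fgf6). They include Fgf11, a further intracellular factor, at 5.80. Of the other receptors, co-receptors and binding proteins 13 of 18 listed genes were tested, 0 passed in either direction, 1 stood at an unadjusted p under 0.05, and the median difference was 0.02. That gene was Cdh2, N-cadherin, which associates with Fgfr1 at the cell surface. It was at 11.72 ± 0.09 in ethanol and 11.86 ± 0.11 in water (SD, n = 10 each), a difference of -0.14, with all 10 ethanol animals below the water mean (adjusted p = 0.306, limma), and the difference was -0.09 without water animals 17, 19 and 20 (adjusted p = 0.476, limma). Flrt1, a transmembrane protein that binds FGF receptors, differed by 0.14 (adjusted p = 0.516, limma). That difference was 0.0021 without the 3 animals and 0.0070 with the medium spiny neuron mean as a covariate.

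Of the signal transducers downstream of the receptors 18 of 24 were tested, 0 passed, 2 stood at an unadjusted p under 0.05, and the median difference was -0.0008. Pik3r1, the regulatory subunit of PI3 kinase, differed by 0.18 (adjusted p = 0.327, limma), by 0.05 when adjusted for the 3′ minus 5′ value and by 0.12 without water animals 17, 19 and 20. Pik3ca, the catalytic subunit, differed by -0.08 (adjusted p = 0.405, limma), and by -0.06 without the 3 animals. The adaptor Frs2 differed by 0.03, with a 95% interval of -0.03 to 0.10. Among feedback inhibitors and targets of the FGF and ERK pathway 13 of 16 were tested, 0 passed, 2 stood at an unadjusted p under 0.05, and the median was -0.003. Etv1, an ETS transcription factor induced by FGF signalling, was at 11.65 ± 0.08 in ethanol and 11.84 ± 0.13 in water (SD, n = 10 each). Its difference was -0.19 ± 0.05 (SE), with all 10 ethanol animals below the water mean (unadjusted p = 0.000793, adjusted p = 0.191, limma), and it was -0.14 without water animals 17, 19 and 20. Spred3, an inhibitor of Ras signalling, differed by -0.09 (adjusted p = 0.379, limma).

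The list drawn up for partners of the intracellular factors leaned higher in ethanol without a call. It also holds auxiliary sodium channel subunits (Scn2b, Scn3b and Scn4b among those tested), for which binding to these factors is not implied. Of 10 listed genes 9 were tested, 8 had a positive difference, 0 passed, 1 stood at an unadjusted p under 0.05, and the median difference was 0.10. Scn2a, a sodium channel pore subunit that Fgf14 binds, differed by 0.10 (adjusted p = 0.407, limma), and Scn3b, an auxiliary subunit, by 0.14 (adjusted p = 0.433, limma). Without water animals 17, 19 and 20 these 2 differed by 0.05 each, and the median of the list was 0.08. With the medium spiny neuron mean as a covariate Scn2a differed by 0.04 and Scn3b by 0.04.

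**Figure D5:**
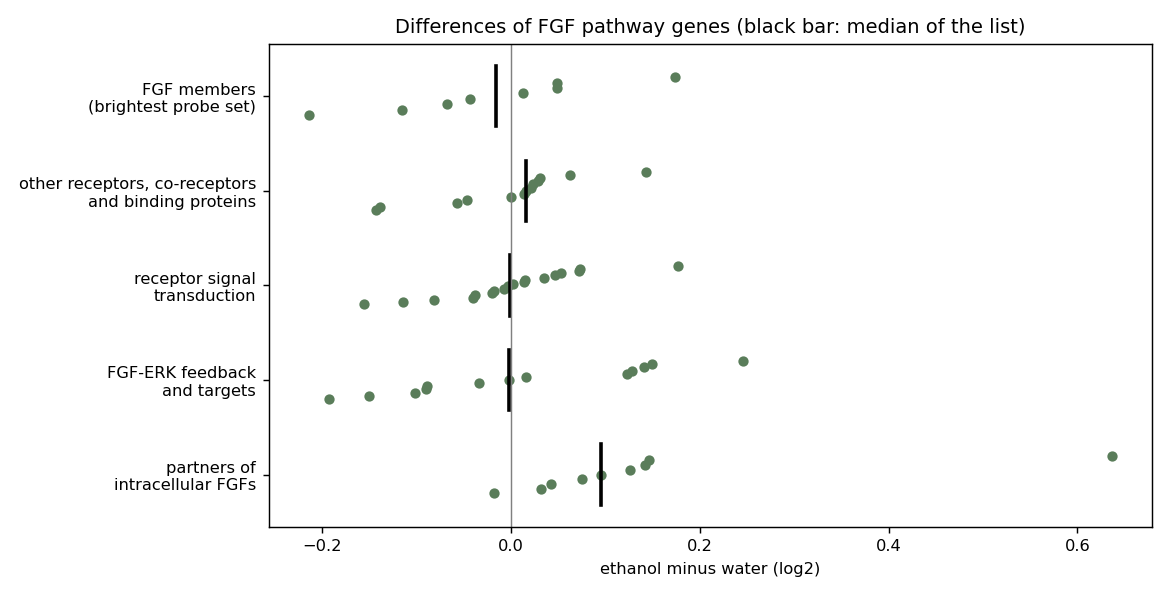
Difference between ethanol and water animals (log2, horizontal axis) of the 8 tested FGF genes and of each tested gene in 4 pathway lists, 1 point per gene, with the median of each list as a black bar. The medians of the lists lie between -0.003 and 0.10, and the point far to the right is Scn4b at 0.64.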

How the data were processed

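RNA of the accumbens shell was measured on 1-colour Affymetrix arrays, 1 per animal, after labelling from the 3′ end, per the labels' protocols. The values the authors deposited are log2 values, processed with RMA per the submitters' processing notes. The chip definition behind them is not given in the sources used here. Differences of dim probe sets are compressed by this method, and a change common to most genes would not be seen after its normalization.

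Of 31099 probe sets, 20826 named 1 gene in the platform table. The dimmest 33.3% (mean below 6.65) and 57 controls were left out. Ethanol and water were compared with limma 3.58.1 in R 4.3.3 (lmFit, eBayes, two-sided, no covariate), with Benjamini-Hochberg adjustment over 20695 probe sets across all genes and a threshold of 0.05. A gene was represented by its brightest probe set. Correlations used values minus group means, with two-sided permutation tests of 100000 resamples. The fit was tested on simulated data. Named were all 9 members, pathway genes past the threshold or else the 2 of smallest p per list, and the 3 most alike genes; Frs2 and Scn4b, and the genes of a division in the closing section, were named after their values were seen. Members and lists were chosen with earlier results of these data known. Alternatives changed the filter, normalization, variance model, weights, covariates or the arrays used. Sequences come from RefSeq (GRCr8), which gave upstream windows for 8 of the 9 members (none for Fgfr1). The number of arrays sets the precision.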

Additional observations from a re-analysis of the deposited data

Results flagged for a closer look

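Of 42 sets of 10 values, 21 probe sets in each group, 1 held an array far from the others. The dim Fgfr2 probe set 1375129_at was at 6.43 in ethanol animal 4, where the next highest ethanol value was 6.20 and the gap was 0.498 of the whole range, above Dixon's 95% limit for 10 values. About 1 in 20 such sets would be marked by chance. The tested Fgfr2 probe set was at 10.26 in the same animal, inside the range of its group.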

How the results depend on the processing

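No paired analysis was possible because the animal numbers of ethanol and water animals do not overlap. The count of FGF probe sets past the threshold (limma) was 0 under each alternative of filter, normalization, variance model, weights, covariate and arrays that was run, at a threshold of 0.10 and with each array left out in turn. In the same alternatives Fgf14, the brighter Fgfr1 probe set and both Fgfr3 probe sets kept their direction. Signs of small differences turned as follows, and the cause was not tested. With array weights the differences were 0.030 and 0.015 for Fgf9 (1392865_at and 1370747_at) and 0.019 and 0.024 for Fgf12 (1394455_at and 1377655_at). With the 3′ minus 5′ value of the control probe sets as a covariate they were 0.039 and 0.018 for Fgf9, 0.0085 for Fgf12 (1377655_at) and -0.068 for Fgfr2. With the medium spiny neuron mean as a covariate they were 0.037 and 0.018 for Fgf12, -0.0077 for Fgf13 and 0.086 for Fgfr1 (1387498_a_at), and with the oligodendrocyte mean 0.014 for Fgf12 (1377655_at) and 0.024 for Fgfr1 (1387498_a_at). A repeated quantile normalization gave 0.0055 for Fgf12 (1377655_at). Without water animals 17, 19 and 20 they were 0.011 and 0.013 for Fgf9, 0.059 and 0.033 for Fgf12, -0.0090 for Fgf13 and 0.073 for Fgfr1 (1387498_a_at), and without water animals 12 and 13 the Fgfr2 difference was -0.015. With 1 array left out the range was -0.025 to 0.139 for Fgf1, -0.024 to 0.017 for Fgf12 (1377655_at), -0.123 to 0.011 for Fgfr1 (1387498_a_at) and -0.025 to 0.046 for Fgfr2. The count over all probe sets, 20, was 10 with the dimmer 50% left out, 38 with array weights, 7 with the 3′ minus 5′ covariate, 49 with the medium spiny neuron covariate, 50 without water animals 17, 19 and 20, 32 at a threshold of 0.10, and 14 to 24 with 1 array left out.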

Other observations

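Within the list of FGF and ERK feedback genes, 5 inhibitors differed between ethanol and water by 0.12 or more and the ETS factors by -0.10 or less, a choice made after the values were seen and not tested. Dusp5, Spry1, Dusp4, Dusp6 and Spry2, which switch off ERK or its upstream steps, differed by 0.25, 0.15, 0.14, 0.13 and 0.12, while Etv1, Etv4 and Etv5 differed by -0.19, -0.15 and -0.10. Other inhibitors of the list did not share that direction: Spred3 differed by -0.09, Spry4 by -0.0028 and Spry3 by 0.02. None of these 11 genes passed (limma, adjusted p between 0.191 and 0.987). Dusp4 lay close to the level for testing of 6.655, at a mean of 6.787 in ethanol and 6.647, below it, in water. For the 5 inhibitors, differences without the water animals low in medium spiny neuron markers are not given here.

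Among the 16 other genes named Fgf, all of them dim, Fgf16 and Fgf21 stood at an unadjusted p under 0.05. This was in the fit without the filter on level (limma), where 10.6% of all probe sets stood there. Fgf16 was at 5.08 in ethanol and 4.92 in water, and Fgf21 at 6.19 in ethanol and 6.04 in water (adjusted p = 0.442 and 0.438, limma). Both lie below the level of 6.65, where the arrays give no detection call.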
